A study of Homo sapiens with 47 samples.

Results

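The genes described are 48 genes of mitosis and of the G2/M transition, listed by function and followed in circulating tumor cells (CTCs) and in cultured cells of the same line. All 48 were found among the 25739 genes of the deposited table by matching gene identifiers to symbols, and all 48 passed the filter of a value above 0 in at least 5 of the 43 cells. The cells are MDA-MB-231-LM2 (LM2), an established human triple-negative breast cancer line selected for metastasis to lung, labeled with GFP. One group holds CTCs from the blood of NOD/SCID gamma (NSG) mice, which lack T, B and NK cells, that carried an LM2 tumor in the mammary fat pad, and it has 37 CTCs from 5 mice (2 from mouse 5541, 4 from 5542, 10 from 5545, 17 from 5546 and 4 from 5549). The other group holds 6 LM2 cells grown in culture. The labels do not divide them, and they were taken as 1 culture without a replicate. The names LM-P3 and LM-P4 carry a letter P that neither the labels nor the study's methods explain. CTCs were enriched by size, picked by GFP and processed by SMARTseq2, a full-length method without molecular identifiers, and a mouse host without T, B and NK cells limits what these CTCs can model. In mouse 5546, 9 library names carry the letter c and 8 the letter s, which neither the labels nor the study's methods explain. All libraries share 1 batch label.

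Mitosis is driven by CDK1 bound to cyclin B. Aurora and Polo-like kinases build the spindle, kinetochores bind it to the chromosomes, and a checkpoint holds back the anaphase-promoting complex (APC/C) until every chromosome is attached. The APC/C, with CDC20 and the ubiquitin-conjugating enzyme UBE2C, then marks securin and the cyclins for destruction, and the cell divides. Transcripts of these genes accumulate in G2 and mitosis and fall in G1 or on exit from the cycle, so they are widely read as a sign of cycling cells. Their promoters are known for CCAAT boxes bound by NF-Y and for a cell cycle homology region (CHR) bound by the MuvB complex, which represses them in resting cells with pocket proteins and activates them with B-MYB and FOXM1.

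The promoter sequences below show where these letters stand, or do not, in 8 members. They are those of a chosen set that had a promoter window with enough bases before the annotated gene body. RefSeq promoter windows (GRCh38.p14), from 250 bases before to 50 after each start, were present for 41 of the 48 members and gave 52 windows. The letters TTTGAA or TTTAAA (CHR), on either strand, stood in 41 of the 52 windows and in 24.0% of all 35116 windows. CCAAT on either strand stood in 38 of the 52, against 34.6% of all windows, and both together in 32 of the 52, against 9.27%. A CHR with GGCGG or GGCGC (as in a cell cycle-dependent element) up to 4 bases before it was found in 7 of the 52 windows and in 0.379% of all. CHR and CCAAT matches can share bases, and a match is a description of letters, not of binding. Each sequence is printed 5′ to 3′ along its gene's strand and ends before the annotated gene body, with CHR and CCAAT letters of either strand in capitals.
MKI67 (minus strand, chr10:128126424-128126523): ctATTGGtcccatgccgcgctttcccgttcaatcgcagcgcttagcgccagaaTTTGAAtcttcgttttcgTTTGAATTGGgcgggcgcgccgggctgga
CDC20 (plus strand, chr1:43358881-43358980): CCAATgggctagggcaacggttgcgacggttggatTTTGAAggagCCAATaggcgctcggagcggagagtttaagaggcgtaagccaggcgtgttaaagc
CCNB1 (plus strand, chr5:69167050-69167134): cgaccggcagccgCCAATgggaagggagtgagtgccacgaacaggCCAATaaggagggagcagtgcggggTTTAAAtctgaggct
CCNB2 (plus strand, chr15:59105046-59105125): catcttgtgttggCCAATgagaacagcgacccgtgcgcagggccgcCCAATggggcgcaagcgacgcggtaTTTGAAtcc
CCNA2 (minus strand, chr4:121823884-121823983): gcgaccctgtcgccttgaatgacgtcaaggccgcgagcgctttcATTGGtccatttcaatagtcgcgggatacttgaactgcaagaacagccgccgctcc
CDK1 (plus strand, chr10:60778231-60778330): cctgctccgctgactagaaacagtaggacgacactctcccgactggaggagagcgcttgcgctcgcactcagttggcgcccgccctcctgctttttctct
CDCA3 (minus strand, chr12:6851293-6851386): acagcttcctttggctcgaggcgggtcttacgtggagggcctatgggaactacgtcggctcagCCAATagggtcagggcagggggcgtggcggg
TOP2A (minus strand, chr17:40417897-40417996): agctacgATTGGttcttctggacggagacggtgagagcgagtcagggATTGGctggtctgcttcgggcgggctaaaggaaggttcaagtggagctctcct
The CHR letters began 30 bases before the RefSeq start in CCNB1, 29 in CCNB2, 65 in CDC20, and 47 and 29 in MKI67, where the second shares bases with a CCAAT box. The printed stretches of CCNA2, CDCA3 and TOP2A hold CCAAT boxes and no CHR letters, and that of CDK1 holds neither. These stretches are only part of each window. The full windows of CDCA3 and TOP2A, and at least 1 of the 2 of CDK1, hold both CHR and CCAAT letters. That of CCNA2 holds CCAAT alone, and forms of the CHR other than TTTGAA and TTTAAA were not searched.

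Reads recovered on genes numbered 469614 to 2041333 per CTC and 776949 to 1186197 per cultured cell, and 2313 to 12299 genes had a value above 0 in a CTC against 7369 to 13679 in a cultured cell. A value is the read count of a gene divided by the size factor of its cell, so 1 read was worth 0.324 to 2.12 depending on the cell, and a value of 0 allows up to 0.972 to 6.36 (3 reads). These floors cover counting error only. The method has no molecular identifiers, and the study's alignment settings name exact collapsing of duplicates. How many PCR copies remain in the counts was not tested. All 8 markers of the MDA-MB-231 line (VIM, CD44, KRT18, KRT8, LGALS1, S100A6, ANXA2 and TMSB10) were above 0 in all 43 cells. Host blood cells are mouse cells, while reads were aligned to the human genome only. Shares of human blood cell genes therefore do not measure how much host blood was present. Markers of blood cells were summed per library: 8 leukocyte genes took 0.00303% to 0.297% of reads in CTCs and 0.00648% to 0.0598% in culture, 5 erythroid genes 0% to 1.59% and 0%, and 5 platelet genes at most 0.00956% in any CTC. Of the leukocyte genes, LAPTM5 was above 0 in 33 CTCs and 6 cultured cells, CD74 in 30 and 4, LYZ in 12 and 1, S100A9 in 30 and 0, TYROBP in 21 and 0, FCER1G in 18 and 0, PTPRC in 11 and 0 and CD79A in 1 and 0. Of the erythroid genes, HBB was above 0 in 35 CTCs, HBD in 34, HBA2 in 29, ALAS2 in 20 and SLC4A1 in 2, and all were at 0 in culture. Over the 37 CTCs, the Spearman correlation of the mitotic score with these shares was -0.02, -0.10 and 0.02, and their part in the values of the members was not tested.

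Mitotic transcripts were spread unevenly over the CTCs, from cells that carried nearly the whole set to cells that carried almost none. The mitotic score of a cell is the mean of log2(value + 1) over the 48 members. It ran from 0.12 to 7.09 over the 37 CTCs, with a median of 3.92, and from 2.58 to 8.77 over the 6 cultured cells. A CTC had a value above 0 for 1 to 48 members (median 38), and a cultured cell for 24 to 48. The widest interval between neighbours in the order of CTC scores was 0.84, between 1.92 in CTC 5546-c8 and 2.76 in CTC 5549-2, with 14 CTCs below it and 23 above it. The 14 CTCs carried 1 to 25 members, which took 0.00810% to 0.0965% of their reads, while the 23 carried 27 to 48 members with 0.199% to 1.63% of reads. In cultured cells the members took 0.231% to 1.84% of reads. After thinning of every cell to 469614 reads the 14 CTCs had 1 to 24 members and the 23 had 27 to 48. The split was made on the score of these same members, so such differences follow from it. The next widest intervals were 0.60, 0.60 and 0.52.

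Every mouse except 5541 gave CTCs on both sides of that interval. The CTCs of mouse 5541 scored 1.10 and 1.18. Those of mouse 5542 scored 0.74, 1.45, 4.94 and 5.09, and those of mouse 5549 scored 0.87, 2.76, 4.54 and 4.94. In mouse 5545 the lowest, median and highest scores were 0.12, 4.75 and 7.07, with 2 of 10 CTCs below the interval. In mouse 5546 they were 0.62, 3.92 and 7.09, with 7 of 17 below it. Of these 7, 6 were among the 8 libraries with the letter s (0.62 to 4.51, median 1.13) and 1 among the 9 with the letter c (1.92 to 7.09, median 5.54). Libraries with s had 4656 to 7538 genes above 0 and those with c 7782 to 12299, so the letter moves with gene number as well as with the score, and these cannot be told apart within 1 mouse. The cultured cells scored 2.58 (LM-3), 6.66 (LM-2), 6.70 (LM-10), 7.99 (LM-P3), 8.02 (LM-P4) and 8.77 (LM-1). CTCs and cultured cells therefore overlapped: LM-3 lay below 23 CTCs, and 3 CTCs lay above LM-2 and LM-10.

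**Figure D1:**
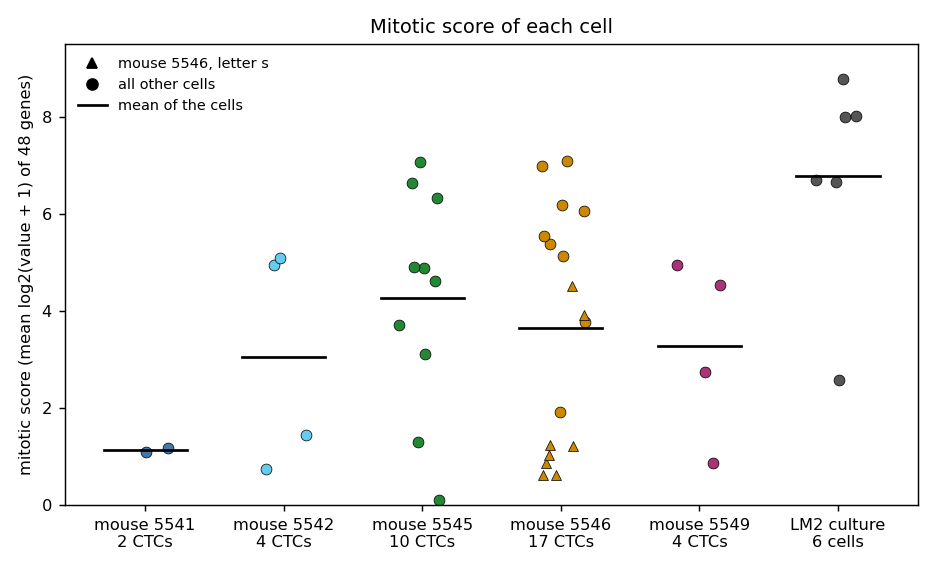
Mitotic score (mean log2(value + 1) of 48 genes, y axis) of each CTC by mouse and of each cultured LM2 cell (x axis), with triangles for letter s libraries of mouse 5546 and lines for the mean of the cells in each column. Scores of CTCs run from 0.12 to 7.09 and those of cultured cells from 2.58 to 8.77, with mouse 5541 low in both of its CTCs.

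The 5 CTCs with the lowest scores were 5545-6, 5546-s9, 5546-s6, 5542-4 and 5546-s4. CTC 5545-6 had a value for a single member, PTTG1 (securin) at 49.9, and 2313 genes above 0 in all. CTC 5546-s6 and CTC 5546-s4 had 7373 and 7538 genes above 0, near the 7369 of LM-10 and the 7405 of LM-3. They had 9 and 10 members, where LM-10 had 45 and LM-3 had 24. The 5 highest were 5546-c5, 5545-1, 5546-c7, 5545-7 and 5545-15, at 7.09, 7.07, 6.98, 6.63 and 6.33, with 46 to 48 members above 0. They came from 2 mice, which also gave the most CTCs.

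**Figure D2:**
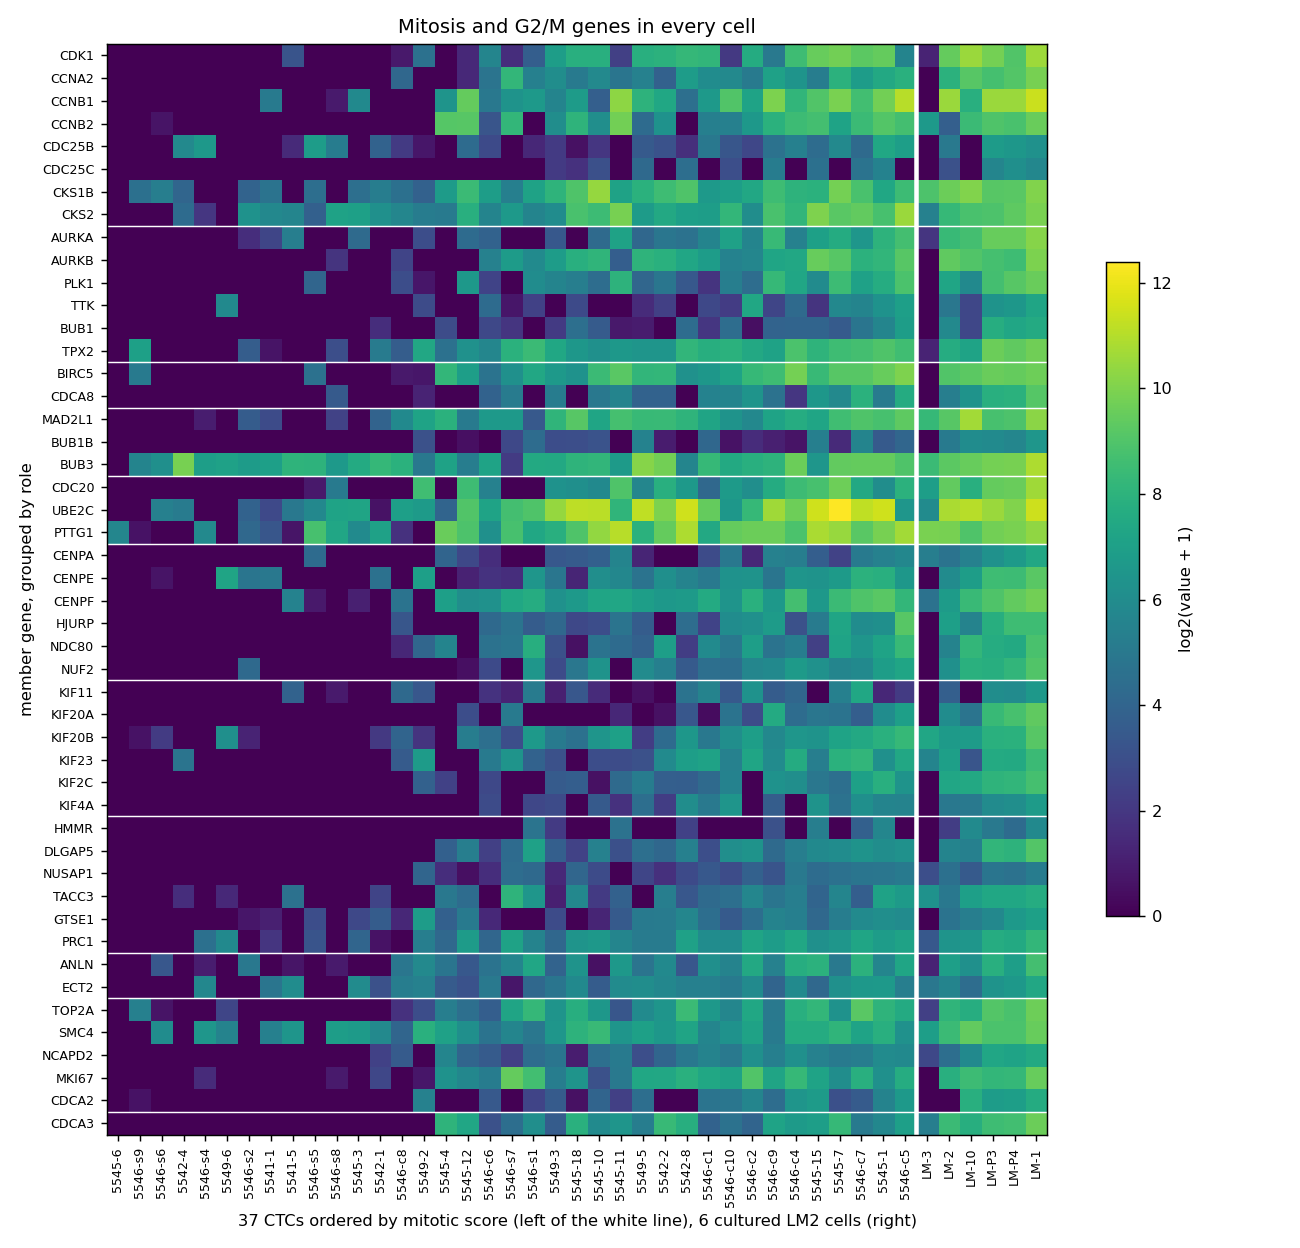
Heatmap of log2(value + 1) for the 48 members (rows, grouped by role) in 37 CTCs ordered by mitotic score and in 6 cultured LM2 cells right of the white line (columns). The 14 leftmost CTCs are dark in most rows, except 5546-c8, which has 25 members above 0. BUB3, PTTG1, SMC4, CKS2, CKS1B and UBE2C are above 0 in many of the 14, and LM-3 is dark in 24 of its 48 rows.

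Compared with the culture, every member had a lower mean log2 value in each of the 5 mice, and 16 members passed the test. Mouse means of the score were 1.14, 3.06, 4.27, 3.65 and 3.28 in mice 5541, 5542, 5545, 5546 and 5549 (3.08 ± 1.18, SD, n = 5 mice), against 6.79 in the culture, a difference of -3.71. Mean log2 values were below the culture in all 5 mice for 48 of 48 members, which 56.1% of all genes tested also showed. In limma on mouse means of log2(value + 1), 16 of 48 members were lower in CTCs at an adjusted p below 0.05 and none higher, against 7.96% of the 14594 genes tested called lower and 0.0274% called higher. At an unadjusted p below 0.05 limma also gave no member higher, against 0.048% of all genes. Differences were below 0 for 48 of 48 members and for 82.2% of all genes. The median member difference was -3.89 and the median of all genes tested was -1.19, a distance of -2.698. The test takes the lone culture sample to vary as the mice do.

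The number of calls depended on how the cells of a mouse were combined. With reads summed per mouse, edgeR's quasi-likelihood test called 0 members and 0 of all genes in either direction. It gave 1 member (AURKA) at an unadjusted p below 0.05, against 0.637% of all genes lower at that p. DESeq2 on the same sums also called 0 members, against 0.0141% of all genes lower, and gave 1 member at an unadjusted p below 0.05, against 0.46%. In edgeR 44 of 48 member differences were below 0, against 40.7% of all genes, with a median of -1.11 against 0.31 for all genes. In DESeq2 45 were below 0, against 42.3%. Limma called 1 member after scaling to CPM (210 of all genes, against 1162), 1 after thinning (164 of all genes) and 0 when logs were taken after averaging (69 of all genes). It also called 0 members (171 of all genes) when the 3 cultured cells with 11912 to 13679 genes were left out, a setting chosen after the data were seen. Calls over all genes thus dropped with those of the members.

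**Figure D3:**
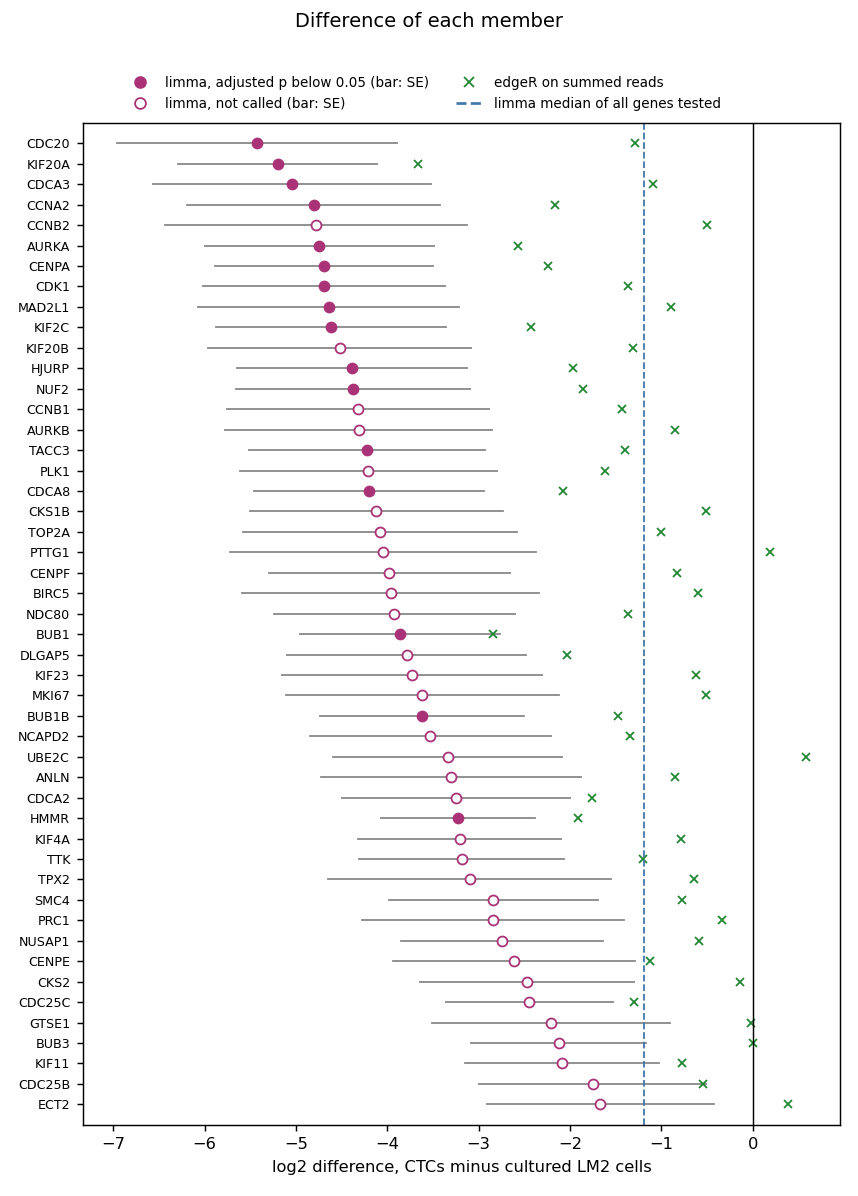
Difference between CTCs and cultured LM2 cells (log2, x axis) for each of the 48 members (y axis), as limma estimates with SE (circles, filled where the adjusted p is below 0.05) and edgeR estimates on summed reads (crosses). All 48 limma estimates lie left of 0, between -5.43 and -1.67, while edgeR estimates lie closer to 0 and 4 of them at or right of it.

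Among CDK1 and its partners, differences ran from -4.81 to -1.75, and 2 of 8 members were called lower, CDK1 and CCNA2. CDK1, the kinase that drives entry into mitosis (chr10:60778331-60794852), had values of 0 and 8.45 in mouse 5541, 0, 0, 252 and 305 in mouse 5542, and 0, 23.4, 118 and 223 in mouse 5549. Its lowest, median and highest values were 0, 113 and 848 in mouse 5545 and 0, 3.14 and 623 in mouse 5546. In culture LM-3 had 1.37 and the other 5 cells 518 to 1546, so that a few CTCs of mice 5545 and 5546 reached the range of those 5. The limma difference of CDK1 was -4.69 ± 1.33 (SE, adjusted p = 0.0330), and 10 of 24 alternatives called it lower. CCNA2, the cyclin of S phase and G2, was at 0 in both CTCs of mouse 5541, at 0, 0, 13.4 and 116 in mouse 5542, and at 0, 0, 42.3 and 67.3 in mouse 5549. It had 0, 30.3 and 248.8 (lowest, median, highest) in mouse 5545 and 0, 31.9 and 296 in mouse 5546, and the cultured cells had 0, 252, 421, 537, 579 and 929. No CTC reached the culture median. Its difference was -4.81 ± 1.38 (SE, limma adjusted p = 0.0355).

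CCNB1 and CCNB2, the mitotic cyclins, were among the members that varied most from CTC to CTC, with SDs of log2 values of 3.95 and 3.90. CCNB1 (chr5:69167135-69178245) had values of 0 and 33.8 in mouse 5541, 0, 0, 22.2 and 165 in mouse 5542, and 0, 0, 47.1 and 260.1 in mouse 5549. Lowest, median and highest were 0, 314 and 1252 in mouse 5545 and 0, 81.0 and 2132 in mouse 5546, where the letter c libraries had a median of 283 and the letter s libraries a median of 0. The cultured cells had 0, 224, 1457, 1474, 1485 and 2731. CTC 5546-c5, the highest CTC, had more CCNB1 than all cultured cells except LM-1. The difference of CCNB1 was -4.32 ± 1.43 (SE) and its adjusted p in limma was 0.0604, and for CCNB2 these were -4.78 ± 1.65 and 0.0706. CCNB2 was at 0 in both CTCs of mouse 5541 and in 3 of 4 of mouse 5542 (79.8 in the fourth), and at 0, 0, 19.04 and 67.3 in mouse 5549. It had 0, 336 and 869.6 in mouse 5545 and 0, 8.73 and 418 in mouse 5546, against 12.5, 101, 343, 452, 501 and 758 in culture, where LM-2 and not LM-3 was lowest.

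CKS1B and CKS2, small subunits that dock CDKs to substrates, were above 0 in 32 and 33 of 37 CTCs and had differences of -4.12 (limma adjusted p = 0.0640) and -2.47 (0.167). CKS1B had 0 and 25.3 in mouse 5541, 15.7, 37.7, 372 and 505 in mouse 5542, 0, 13.4, 237 and 267 in mouse 5549, up to 1389 in mouse 5545 and up to 461 in mouse 5546, against 492 to 1044 in culture. CKS2 had 48.9 and 53.4 in mouse 5541, 19.1, 72.7, 125 and 178 in mouse 5542, 0, 35.5, 64.5 and 109 in mouse 5549, up to 1035 in mouse 5545 and up to 1488 in mouse 5546, against 42.4 to 963 in culture. Most CTCs lay below the cultured cells for CKS1B, and 2 CTCs lay above all of them for CKS2. CDC25B and CDC25C, the phosphatases that switch CDK1 on, had low values, with CTC means of 23.4 and 5.04, and CDC25C was above 0 in 10 CTCs. CDC25B had 0 and 1.81 in mouse 5541, 2.16, 7.84, 13.8 and 55.3 in mouse 5542, 0, 0.670, 3.36 and 10.2 in mouse 5549, and up to 164 and 124 in mice 5545 and 5546, against 0, 0, 31.4, 75.6, 92.0 and 112 in culture.

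Of the mitotic kinases and their activators, AURKA and BUB1 were called lower and AURKB, PLK1, TTK and TPX2 were not. AURKA, the centrosome and spindle kinase (chr20:56369389-56392337), had 5.06 and 38.6 in mouse 5541, 0, 0, 24.3 and 28.1 in mouse 5542, and 0, 6.70, 9.53 and 16.7 in mouse 5549. From lowest through median to highest it had 0, 19.03 and 259 in mouse 5545 and 0, 2.07 and 412 in mouse 5546. Apart from LM-3 the cultured cells had 326 to 1114, and no CTC reached the culture median of 566. The difference of AURKA was -4.75 ± 1.25 (SE, limma adjusted p = 0.0237), with calls in 13 of 24 alternatives. PLK1, which acts from G2 to cytokinesis (chr16:23677656-23690367), was at 0 in both CTCs of mouse 5541, at 0, 0, 9.73 and 28.6 in mouse 5542, and at 0, 0.670, 16.3 and 47.7 in mouse 5549. It reached 361 in mouse 5545 and 469.6 in mouse 5546 (CTC 5546-c5), against 0 in LM-3 and up to 749.99 in LM-1. Its difference was -4.21 ± 1.41 (SE, limma adjusted p = 0.0638). TPX2, which activates Aurora A on the spindle, was above 0 in 29 CTCs and had a difference of -3.10 ± 1.55 (SE, limma adjusted p = 0.188).

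The APC/C activator CDC20 had the largest difference of all members, and its partners UBE2C and PTTG1 had high values in some CTCs. CDC20 (chr1:43358981-43363203) was at 0 in both CTCs of mouse 5541, at 0, 0, 98.4 and 221 in mouse 5542, and at 0, 49.7, 79.1 and 386 in mouse 5549. The lowest, median and highest were 0, 68.5 and 799 in mouse 5545 and 0, 17.2 and 357 in mouse 5546. All cultured cells had it, from 120.3 in LM-3 to 1579.6 in LM-1, and 27 CTCs lay below the lowest of them. The difference was -5.43 ± 1.53 (SE, limma adjusted p = 0.0329), with calls in 12 of 24 alternatives.

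UBE2C, the E2 enzyme of the APC/C (chr20:45812576-45816957), had the highest CTC mean of all members per kb of exon (664). Its values were 5.63 and 30.2 in mouse 5541, 0.531, 34.8, 969 and 2846 in mouse 5542, and 0, 107, 1383 and 2331 in mouse 5549. Lowest, median and highest values were 0, 1345 and 5365 in mouse 5545 and 0, 142 and 2368 in mouse 5546, and the cultured cells had 62.9, 1049, 1455, 1795, 2122 and 2813. CTC 5545-7 held the highest value, and 4 CTCs lay above every cultured cell and 12 below the lowest. The limma difference of UBE2C was -3.34 ± 1.25 (SE, adjusted p = 0.0905), while edgeR on summed reads gave 0.58 (adjusted p = 0.99980), the opposite direction. PTTG1, the securin that holds separase until anaphase, had 0.604 and 9.001 in mouse 5541, 0, 138, 697 and 1838 in mouse 5542, and 0, 0, 225 and 236 in mouse 5549. Its lowest, median and highest values were 49.9, 833 and 2119 in mouse 5545 and 0, 178 and 1619 in mouse 5546, against 509 to 1307 in culture. For PTTG1 6 CTCs lay above every cultured cell and 24 below the lowest. Its difference was -4.04 ± 1.67 (SE, limma adjusted p = 0.121), and edgeR gave 0.19. After UBE2C, the members with the highest CTC mean per kb of exon were CKS2 (385), PTTG1 (260.5), CCNB1 (109) and CKS1B (87.3).

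The share of member reads that came from UBE2C was 9.35% in the culture. It was 23.0%, 22.8%, 10.4% and 31.9% in mice 5542, 5545, 5546 and 5549, and 3.55% in mouse 5541. The share of AURKA was 3.31% in culture, 0.329%, 0.920%, 1.60% and 0.263% in these 4 mice, and higher, at 4.32%, in mouse 5541, and that of KIF20A was 1.47% in culture and at most 0.569% in any mouse. Each share pools the reads of a group, and single cells differed widely. The UBE2C share ran from 2.10% (LM-3) to 14.3% (LM-10) in culture. It ran from 0% to 32.4% over the CTCs of mouse 5545 and from 0% to 19.6% over those of mouse 5546. No test of these shares was made.

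Of the spindle checkpoint, MAD2L1 and BUB1B were called lower, with differences of -4.64 ± 1.425 (SE, limma adjusted p = 0.0451) and -3.62 ± 1.12 (SE, limma adjusted p = 0.0459). BUB3, which also works with BUB1 at kinetochores, was the most widely detected member and was above 0 in 36 of 37 CTCs. It had 126 and 263 in mouse 5541, 49.2, 303, 858 and 926 in mouse 5542, 30.1, 137, 176 and 1124 in mouse 5549, and medians of 164 and 184 in mice 5545 and 5546. The cultured cells had 349 to 1840.2, and the difference was -2.12 ± 0.96 (SE, limma adjusted p = 0.148), with 0.00286 in edgeR. In mouse 5541 BUB3 made up 39.0% of all member reads. This was not particular to that mouse, as the share in low-scoring CTCs of other mice ran from 0% in 5545-6 to 85.8% in 5542-4. Members above 0 in at least 30 CTCs numbered 6 of 48 (BUB3, UBE2C, PTTG1, CKS2, CKS1B and SMC4), against 21.1% of all genes tested.

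Among centromere and kinetochore genes CENPA, HJURP and NUF2 were called lower, and CENPE, CENPF and NDC80 were not. CENPA is the histone H3 variant that marks centromeres and HJURP is its chaperone, and their differences were -4.70 ± 1.19 (SE, limma adjusted p = 0.0194) and -4.39 ± 1.26 (SE, limma adjusted p = 0.0349). All cultured cells had CENPA, from 25.1 to 171, and 30 of 37 CTCs lay below the lowest of them. HJURP reached 584 in CTC 5546-c5, above every cultured cell, and this CTC held 44.2% of the sum over CTCs.

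KIF20A, the kinesin MKLP2 that carries the chromosomal passenger complex to the midzone (chr5:138178719-138187723), had the smallest adjusted p of the members. It was at 0 in both CTCs of mouse 5541 and in all 4 of mouse 5549, and at 0, 0, 0.461 and 9.19 in mouse 5542. Lowest, median and highest were 0, 0.802 and 64.9 in mouse 5545 and 0, 0 and 188 in mouse 5546, and the cultured cells had 0, 25.9, 65.2, 324, 445 and 649. No CTC reached the culture median of 195. The difference was -5.20 ± 1.09 (SE, limma adjusted p = 0.00625), and 19 of 23 alternatives called it lower. Of the other motors, the depolymerizing kinesin KIF2C was called lower (-4.62 ± 1.26, SE, limma adjusted p = 0.0283), and KIF11, the bipolar kinesin Eg5, had a difference of -2.09 ± 1.06 (SE, limma adjusted p = 0.193). In the spindle and midzone group HMMR and TACC3 were called lower, at -3.22 and -4.22. HMMR was the least detected member, above 0 in 8 CTCs. CDCA8 (borealin), of the chromosomal passenger complex, was called lower at -4.20, and BIRC5 (survivin) was not (-3.96, limma adjusted p = 0.116). BIRC5 was at 0 in mouse 5541, at 0, 0, 76.7 and 296 in mouse 5542, at 0, 0.670, 100.4 and 284 in mouse 5549, and at up to 717 and 1032 in mice 5545 and 5546, against 0 in LM-3 and 516 to 814 in the other cultured cells.

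MKI67 and TOP2A, the markers most used to count cycling cells, had lower means in every mouse and did not pass the test. MKI67, which coats mitotic chromosomes (chr10:128096659-128126423), was at 0 in both CTCs of mouse 5541, at 0, 5.31, 173 and 230.2 in mouse 5542, and at 0, 0.670, 37.01 and 167 in mouse 5549. From lowest through median to highest it had 0, 58.8 and 143 in mouse 5545 and 0, 142 and 712 in mouse 5546, and the cultured cells had 0, 223, 296, 308, 364 and 728. The CTC with the most MKI67 was 5546-s7, a letter s library. The difference was -3.62 ± 1.49 (SE, limma adjusted p = 0.117). TOP2A, the topoisomerase that untangles sister chromatids (chr17:40388525-40417896), was at 0 in both CTCs of mouse 5541, at 0, 0, 88.1 and 353 in mouse 5542, and at 5.00, 6.70, 60.8 and 85.2 in mouse 5549. The lowest, median and highest were 0, 58.9 and 289 in mouse 5545 and 0, 40.97 and 586 in mouse 5546, against 4.10, 212, 271, 452, 542 and 814 in culture. Its difference was -4.08 ± 1.499 (SE, limma adjusted p = 0.0850). MKI67 was above 0 in 26 of 37 CTCs and TOP2A in 27.

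The smallest differences were those of ECT2 (-1.67), CDC25B (-1.75), KIF11, BUB3 and GTSE1 (-2.21). ECT2, the exchange factor that activates RhoA in cytokinesis, had 27.0 and 65.2 in mouse 5541, 0, 7.43, 40.5 and 52.6 in mouse 5542, and 0, 26.9, 42.2 and 66.4 in mouse 5549. Its medians were 38.05 and 31.6 in mice 5545 and 5546, and the cultured cells had 20.7, 28.7, 47.7, 80.7, 95.2 and 169. The limma adjusted p was 0.377. GTSE1, a microtubule protein of G2 that acts on p53, had 0 and 1.13 in mouse 5541, 0, 11.2, 35.1 and 50.8 in mouse 5542, 0, 6.17, 32.5 and 116 in mouse 5549, and up to 68.1 and 61.6 in mice 5545 and 5546, against 0, 25.1, 37.9, 53.4, 102 and 131 in culture. KIF11 had 0 and 13.9 in mouse 5541, 0, 0, 0 and 25.4 in mouse 5542, 0, 0.464, 1.12 and 9.38 in mouse 5549, and up to 41.6 and 164 in mice 5545 and 5546, against 0, 0, 12.5, 62.9, 66.5 and 95.5 in culture. For ECT2, CDC25B, KIF11 and GTSE1 the values of CTCs and cultured cells overlapped, though for ECT2 16 CTCs lay below the lowest cultured cell. For BUB3 29 CTCs did so.

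At the other end, CDCA3, a trigger of mitotic entry that works with an SCF ubiquitin ligase, was at 0 in both CTCs of mouse 5541, at 0, 0, 217 and 327 in mouse 5542, and at 0, 0, 11.2 and 37.6 in mouse 5549. It reached 309 and 146 in mice 5545 and 5546, and the cultured cells had 38.3, 214, 348, 368, 395 and 789.8. The difference was -5.05 ± 1.52 (SE, limma adjusted p = 0.0424), and 8 of 24 alternatives called it lower.

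A rule of size on mean values gave a narrower set. CTC means of all 5 mice lay at least 4-fold below the culture mean, after 1 was added to both and where the larger mean was at least 8, for 10 of 48 members (CCNA2, AURKA, BUB1, CDCA8, CENPA, NUF2, KIF20A, KIF2C, DLGAP5 and CDCA2), against 3.23% of genes tested, and no member met the rule upward, against 0.0274%. By mean value, mouse 5545 was above the culture for UBE2C (1652 against 1549.7) and PTTG1 (942 against 919). At the level of cells, 36 of 48 members had at least 1 CTC above the culture median and 11 had at least 1 CTC above every cultured cell. The matching shares of all genes were not counted, and CTCs far outnumbered cultured cells. These counts therefore describe the overlap of values and do not set the members apart from other genes.

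Mouse 5541 had the lowest mean mitotic score of the 5 mice, with 0.0601% of reads on members. Each other mouse also had a CTC that scored below both CTCs of mouse 5541: 5545-6 (0.12), 5546-s9 (0.62), 5542-4 (0.74) and 5549-6 (0.87). Of 48 members 28 were at 0 in both CTCs of mouse 5541, against 35% of all genes tested. Another 7 were above 0 in both (CKS2, AURKA, BUB3, UBE2C, PTTG1, ECT2 and SMC4), and 13 in 1 of them. CKS2 had 53.4 and 48.9 there, and SMC4, a condensin subunit that chromosomes also use outside mitosis, had 40.5 and 87.5. These CTCs had 8253 and 6609 genes above 0 and 1381851 and 1431601 reads, within the range of the other CTCs. The median member difference from the culture was -6.01 in this mouse and -3.85, -2.59, -3.09 and -3.58 in mice 5542, 5545, 5546 and 5549. Without mouse 5541 limma called 26 members lower in place of 16, and over all genes 2332 in place of 1162.

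Members varied together from CTC to CTC. Over 37 CTCs, the 1128 pairs of members had a median Spearman correlation of 0.64, against 0.14 between members and 10503 other genes above 0 in at least 10 CTCs. The median was 0.54 with the rank of genes detected removed and 0.59 after thinning. Within mouse 5545 (10 CTCs) it was 0.58, within the letter c libraries (9) 0.58 and within the letter s libraries (8) 0.50. The medians between members and other genes in these sets were 0.20, 0.10 and -0.12, with 95th percentiles of 0.69, 0.67 and 0.61. Among the letter s libraries 1035 pairs had a value, and 76.4% of them were above 0. Points share library and depth, and these values describe these cells. BIRC5 (0.89) and NCAPD2 (0.89), a condensin subunit, followed the mean of the other members most closely, and BUB3 (0.45), CDC25B (0.45) and HMMR (0.47) least.

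Of 10503 genes outside the list, those most like the mitotic score were PBK (0.88), CEP55 (0.87), SHCBP1 (0.86), CIT (0.86), KIFC1 (0.84), SPAG5 (0.84), FOXM1 (0.83), ZWINT (0.83), CKAP2L (0.82) and ASPM (0.82), by Spearman's rho over 37 CTCs. The median over all 10503 was 0.19, and 55 reached at least 0.7. PBK is a mitotic kinase, CEP55 and the kinase CIT act at the midbody, SPAG5 and ASPM at the spindle poles, and FOXM1 activates G2/M genes. The mean log2 value of 59 further mitotic genes that the score did not use had a rho of 0.95 with it, and 0.95, 0.95 and 0.88 within mouse 5545 and the libraries with c and s.

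The related lists, chosen by function, had limma medians below 0 of unequal size, and their counts stand beside the 7.96% of all genes called lower. Of the 59 further mitotic genes 16 were called lower by limma and none higher, with a median difference of -3.37, and they were INCENP (-2.11), DEPDC1B (-4.23), BORA (-3.87), NEK2 (-4.85), SPAG5 (-4.92), ZWINT (-5.56), CEP55 (-4.80), MELK (-4.64), TRIP13, CENPM, FBXO5, KPNA2, SGO1, PIMREG, KIFC1 and ARHGAP11A. Of 38 genes of G1/S and S phase 12 were called lower, with a median of -3.80, among them the licensing factors CDC6 (-5.23), CDT1 (-3.77), MCM2 (-4.98) and MCM3 (-4.94), and RRM1, GINS2, DTL, RAD51AP1, EXO1, TIPIN and POLA1. Of 22 transcriptional regulators 3 were called lower (LIN9 at -3.57, NFYB at -3.75 and E2F8 at -2.60), with a median of -2.20, and FOXM1 was not (-3.94 ± 1.26, SE, limma adjusted p = 0.0525). LIN9 is a MuvB subunit and NFYB a subunit of NF-Y. Of 15 APC/C subunits and CDH1, 1 was called lower (ANAPC4, -4.33), with a median of -2.08, a share near that of all genes. Of 8 G1 cyclins and CDKs, 1 was called lower, cyclin E2 (CCNE2, -3.85), with a median of -2.12. Of 5 CDK inhibitors none was called in limma, with a median of -1.13, close to the -1.19 of all genes, and the largest differences were those of CDKN2C (-2.85, limma adjusted p = 0.129), CDKN1B (-1.72) and CDKN2D (-1.13). In edgeR the medians were -0.95 for the further mitotic genes, -0.89 for S phase, -0.25 for regulators, -0.45 for the APC/C, -0.40 for G1 and 0.35 for CDK inhibitors, with no call. Over 37 CTCs the mean log2 values of regulators, APC/C, G1 and CDK inhibitors had a rho of 0.78, 0.61, 0.58 and 0.61 with the mitotic score. With the rank of genes detected removed these were 0.62, 0.29, 0.30 and 0.40, against 0.93 for the further mitotic genes.

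The S-phase score, the mean log2(value + 1) of 38 genes, had a rho of 0.77 with the mitotic score over 37 CTCs, 0.87 in mouse 5545, 0.30 among letter c and 0.74 among letter s libraries, and 0.70 with the rank of genes detected removed. CTCs scored 0.35 to 5.88 for S phase and the cultured cells 4.81 to 7.63, so the ranges overlapped. The CTC with the highest mitotic score, 5546-c5, had an S-phase score of 3.94, below all cultured cells. LM-3 stood apart in culture, with an S-phase score of 6.66, close to the 6.69 of LM-10, and a mitotic score of 2.58. It was the lowest or tied lowest cultured cell for 41 of 48 members and at 0 for 24, with MKI67, CCNB1, CCNA2, PLK1 and BIRC5 at 0, but it had PTTG1 at 941, CDC20 at 120.3 and UBE2C at 62.9.

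**Figure D4:**
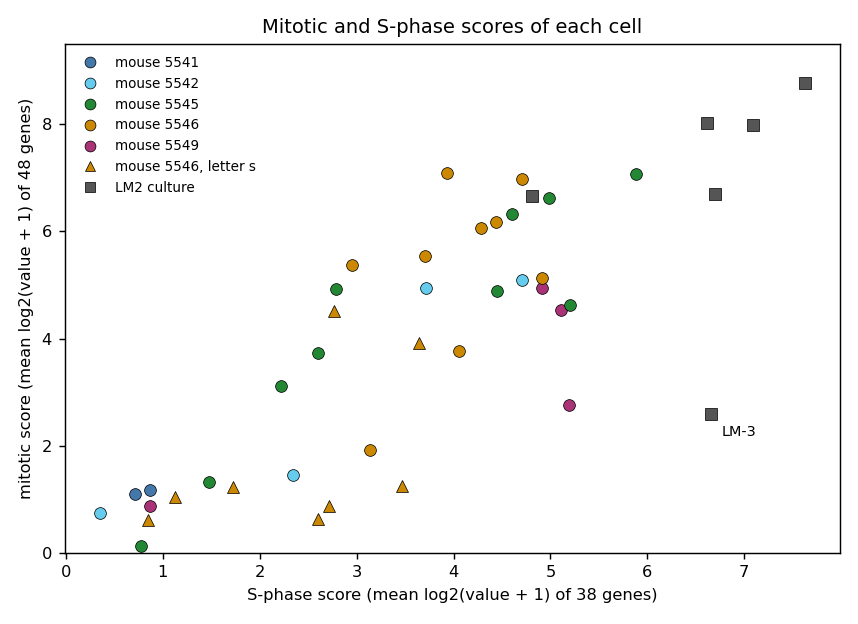
Mitotic score (48 genes, y axis) against S-phase score (38 genes, x axis), both as mean log2(value + 1), for 37 CTCs colored by mouse and 6 cultured LM2 cells (squares). Cells with little S-phase signal have low mitotic scores, and LM-3 lies at 6.66 on the x axis and 2.58 on the y axis, away from the other cultured cells.

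The score also moved with the number of genes detected. Their rho was 0.61 over 37 CTCs and 0.67 in mouse 5545, but 0.15 among letter c and -0.14 among letter s libraries, and the rho with reads on genes was 0.23 and with mitochondrial share -0.14. The 13 CTCs with 7369 to 8467 genes above 0, which is the interval spanned by 3 cultured cells, had mitotic scores of 0.63 to 6.63 (median 4.62), while LM-10, LM-3 and LM-2 scored 6.70, 2.58 and 6.66. The other 3 cultured cells, with 11912 to 13679 genes, had the highest scores of all, and without them the score difference between CTCs and culture was -2.23 in place of -3.71.

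**Figure D5:**
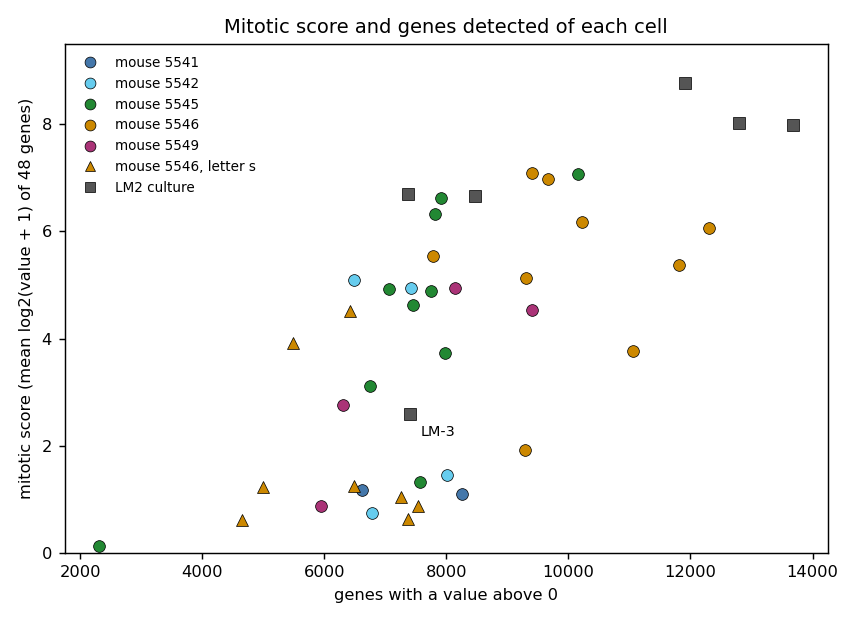
Mitotic score (48 genes, y axis) against the number of genes with a value above 0 (x axis) for 37 CTCs and 6 cultured LM2 cells (squares). Between 7369 and 8467 genes the CTCs run from 0.63 to 6.63, and the 3 cultured cells with 11912 to 13679 genes have scores of 7.99 to 8.77.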

How the data were processed

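Single cells were sequenced by SMARTseq2 with oligo-dT priming. The deposited signal is a gene's read count over that cell's DESeq2 size factor, computed by the authors. Per the labels and methods, alignment used STAR 2.7.10a, GRCh38 and GENCODE. Only unique alignments were counted, without regard to strand, and 4 of 41 labelled CTCs have no values here. Division by the smallest nonzero value of a cell gave whole reads for 100% of nonzero values (tolerance 0.001). Names, coordinates and exon lengths came from GENCODE 44 on GRCh38. Of the members, 16 overlap another protein-coding gene and 14 have named copies elsewhere in the genome (CKS1B 7, UBE2C 5), so their counts are uncertain to that extent.

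Mouse means of log2(value + 1) were tested against the culture mean in limma 3.58.1 (trend, robust) over 14594 genes above 0 in at least 5 of 43 cells, with Benjamini-Hochberg adjustment. The mouse was the replicate, groups came from the labels, and the 6 cultured cells counted as 1 sample. Summed reads were tested in edgeR 4.0.16 and DESeq2 1.42.0 (R 4.3.3). Scores and correlations, given as descriptions without tests, used Python 3.11.15 with pandas 2.3.3, numpy 2.4.6 and scipy 1.17.1. Fold changes on the log2(value + 1) scale understate changes of low genes and are no bounds where a mouse is at 0. Alternatives changed the pseudocount, filter, scaling, depth, weighting, tool and libraries. Steps were tested on simulated data. Cells were picked singly and no doublet caller was run. The highest correlation of log2 values between libraries was 0.955 (LM-P3 and LM-P4).

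Named members were the hallmarks MKI67, TOP2A, CCNB1, CDK1, UBE2C, PLK1, AURKA and CDC20, the 5 highest per kb in CTCs, the 5 largest and 5 smallest differences and the 5 largest SDs (CCNB1, CCNB2, BIRC5, UBE2C and CDK1). Other members were named to complete a role. In related lists, genes past the threshold were named, except 1 that is not reported here, or, failing any, the 3 with the largest differences. Like genes were the 10 with the highest correlation. The members and lists were chosen with earlier results of these data known.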

Additional observations from a re-analysis of the deposited data

Results flagged for a closer look

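In groups of 4 to 10 cells or mice, the gap of the highest or lowest value to its nearest neighbour was set against the range of the group with Dixon's 95% limits, and 14 of 61 groups had a value that stood apart, where chance gives about 1 in 20. Of the 14, 12 concern LM-3 in culture, and they share this cell, so they are not independent. LM-3 stood apart from the other cultured cells in the mitotic score (2.58) and in the number of members above 0 (24). On the log2(value + 1) scale it also did so for MKI67, CCNB1, CCNA2, GTSE1 and BIRC5 (each 0), TOP2A (2.35), CDK1 (1.24), UBE2C (6.00), AURKA (1.90) and CKS2 (5.44). LM-3 had 949271 reads and 7405 genes above 0, close to LM-10 with 776949 and 7369. Among the letter c libraries of mouse 5546, 5546-c8 stood apart with 25 members above 0, where the other 8 had at least 43. Among mouse means of log2 values, TOP2A in mouse 5541 (0) stood apart from the other 4 mice.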

How the results depend on the processing

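Direction was steadier than the calls. The median member difference stayed below 0 in all 24 alternatives of the fit, and below the median of all genes in each, but the count of 16 members called lower changed widely. Calls lower over all genes, 1162 of 14594, moved as well and stand in parentheses. The count rose to 22 with a pseudocount of 8 (1683), with 14 of the 16 among them, and to 21 weighted by cells (2167). It was 6 with a pseudocount of 0.1 (645), 3 with no filter (2182 of 25739), 0 of 44 with genes above 0 in at least 22 cells (17 of 7457), 0 with logs taken after averaging (69), 1 on CPM (210), 1 after thinning (164), 2 without the letter s libraries (562), 1 without the 10 CTCs with the fewest genes (343), 0 without the 3 gene-rich cultured cells (171, added after the data were seen), 0 in edgeR (0) and 0 in DESeq2 (2, with 12 higher). Leaving out each mouse gave 1 (without 5546, 524) to 26 (without 5541, 2332), and leaving out each cultured cell gave 4 (without LM-1, 740) to 34 (without LM-3, 1886), with 6 without LM-P3 (719) and 7 without LM-P4 (834). The cause was not tested. Relative to the median of all genes, the members lay at -2.698 in limma, -2.59 on CPM, -2.50 after thinning and -1.4197 in edgeR. The median member difference of -3.89 became -2.22 without the gene-rich cultured cells, -1.11 in edgeR and -1.14 in DESeq2.

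The 10 members past the 4-fold rule (472 of all genes) became 36 at 2-fold (2283), 23 without the highest CTC of each larger mouse (1358), 4 on CPM (130), 1 without the gene-rich cultured cells (368), and 7 (without LM-1, 381) to 18 (without mouse 5545, 742) when mice or cultured cells were left out in turn. The score difference of -3.71 became -2.23 without the gene-rich cultured cells. Of the named members, UBE2C (0.58 and 0.56), PTTG1 (0.19 and 0.14) and ECT2 (0.38 and 0.39) changed sign in edgeR and DESeq2, BUB3 (0.00286) in edgeR, and CDC25B (0.68) and KIF11 (0.40) without the gene-rich cultured cells. Other scores, median detection and co-variation moved by less than their spread. No paired analysis was possible because the groups share no replicate numbers.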
